A study of Mus musculus with 2 samples.

Results

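The genes described here are the matrix metalloproteinases (Mmp), the ADAMTS proteases and their ADAMTS-like relatives (Adamts, Adamtsl) and the tissue inhibitors of metalloproteinases (Timp). They were taken by name: every non-control probe whose gene name was Mmp, Timp, Adamts or Adamtsl followed by a digit. This gave 51 of the 37321 gene names on the array, namely 23 Mmp, 19 Adamts, 5 Adamtsl and 4 Timp genes, read by 103 of 56594 probes. Both families of proteases hold a zinc ion in the catalytic site and cleave proteins outside the cell. MMPs are made as inactive precursors and act on collagens, basement membrane and other matrix proteins, whereas ADAMTS proteases carry thrombospondin-type repeats and are known for trimming procollagens and for cleaving large proteoglycans such as versican and aggrecan. ADAMTS-like proteins share the repeats but have no protease domain, and TIMPs bind the active site of the proteases and block it. In skin, these genes are known for their part in wound repair, in the breakdown of dermal collagen after ultraviolet light and in the passage of tumour cells through the basement membrane.

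RNA came from skin tumours on the backs of male mice, 1 sample from P2ry6+/+ (wild-type) and 1 from P2ry6-/- mice, with 1 Agilent array in 1 colour for each. P2ry6 encodes a receptor for the nucleotide UDP. Mice of both genotypes were 2 months old at the start and had the same ultraviolet B (UVB) course, with a dose of 180 mJ/cm2 for 10 weeks, weekly steps of 10 mJ/cm2 up to 300 mJ/cm2 at week 22, and that dose until week 40; no unirradiated skin was analysed here. How many tumours or mice each RNA sample holds, and which part of P2ry6 was deleted, are not given in the sources used here. The comparison asks which of these genes differ between the tumours when P2ry6 is deleted. Each genotype has 1 array and no replicate. A gene is therefore described by the size of its difference, with no test.

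The targeted gene went against the labels: P2ry6 read higher on the knockout-labelled array, by 1.29 ± 0.01 log2 units (SD, n = 2 probes, 2.44-fold), so the arrays are named by their labels and every direction rests on those labels. Keratinocyte markers were present: 7 of 7 basal keratinocyte markers and the 6 suprabasal markers with a probe were well above background on both arrays. On each array about the same share of spots was well above background, 57.8% (wild-type-labelled) and 57.9% (knockout-labelled), and no spot was saturated. A signal below is the scanner's background-subtracted brightness of a probe. A level is log2 of that signal relative to the array's 75th percentile, and a difference is the level on the knockout-labelled array minus that on the wild-type-labelled array, averaged over the gene's probes that were well above background on both. The error given with a single probe is the scanner software's own error of that difference, which covers technical error only. Between different probes of 1 gene the differences had an SD of 0.38 over all genes.

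Of the 51 genes, 34 were measured on both arrays, 2 exceeded background only in the knockout-labelled sample, 1 only in the wild-type-labelled sample and 14 in neither. Among the 34 measured genes, 9 (26.5%) were at least 2-fold higher on the knockout-labelled array and 1 (2.94%) at least 2-fold lower. Over all 19872 measured genes the same shares were 4.82% higher and 5.04% lower. The 9 were the proteases Mmp13, Mmp3, Mmp17, Adamts9, Adamts7, Adamts18 and Adamts8 and the inhibitors Timp1 and Timp3, and the 1 lower gene was Adamts1. On a scale set by spike-in control probes, on which every difference reads 0.47 lower, the split was 5 higher and 2 lower. The median of the 34 differences was 0.32, beside −0.06 over all measured genes. Of the 34, 23 (67.6%) lay above 0, beside 45.1% of all measured genes. On the spike-in scale the median of the members turned to −0.15 and that of all genes to −0.53, and 16 of the 34 lay above 0.

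**Figure D1:**
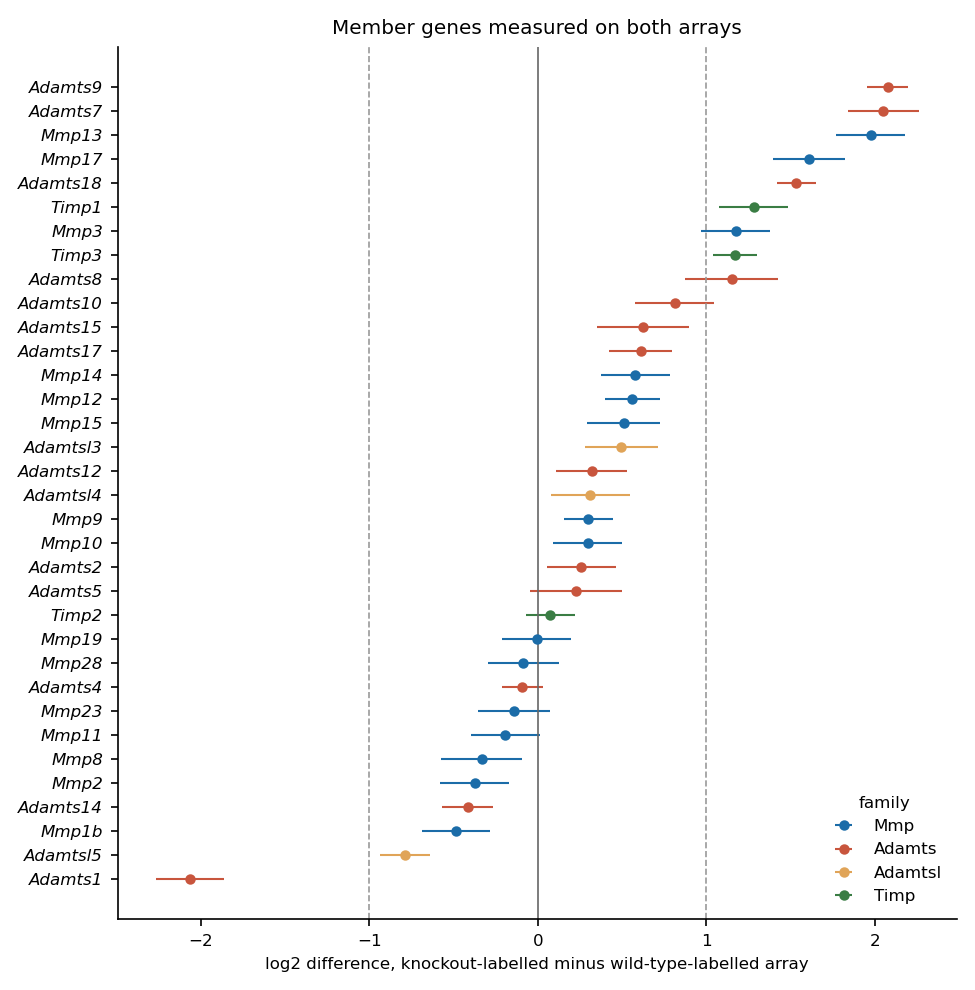
Difference between the arrays (log2, knockout-labelled minus wild-type-labelled, x axis) for the 34 member genes measured on both, coloured by family. Bars are the scanner software's error, dashed lines mark 2-fold; 9 genes lie beyond the right line and Adamts1 alone lies beyond the left one.

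**Figure D2:**
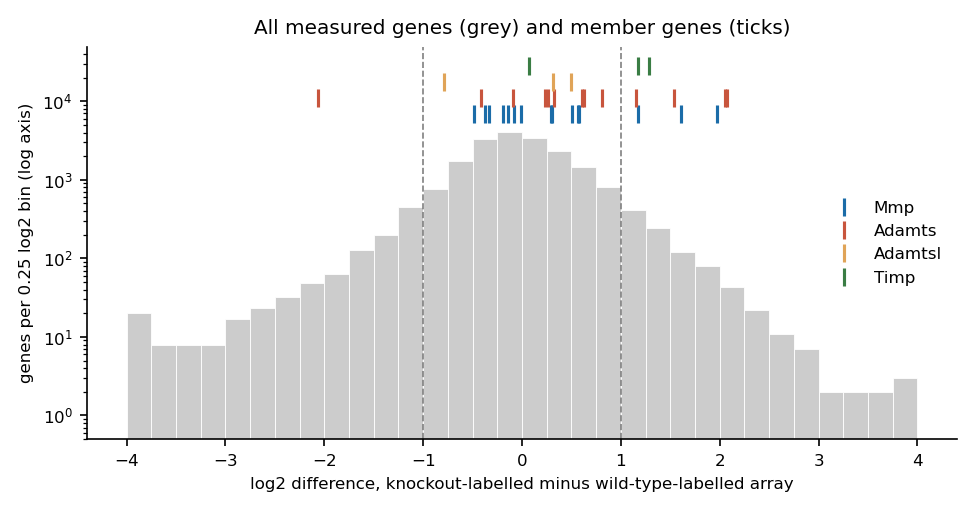
Grey bars count all 19872 measured genes by their difference (log2) on a log axis, with differences beyond 4 in size in the end bins, and coloured ticks are the 34 members in 1 row per family. Ticks are spread to the right of the grey peak, with Adamts1 the single tick left of the 2-fold line.

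A cluster of 10 Mmp genes lies on chromosome 9, and Mmp13 and Mmp3 were in it. The probes of the cluster spanned 417 kb on mm9, in the order Mmp13, Mmp12, Mmp1b, Mmp3, Mmp1a, Mmp10, Mmp8, Mmp27, Mmp20 and Mmp7. The promoters of these genes are known for a binding site of AP-1, the dimer of Fos and Jun proteins, which was first described in the collagenase promoter as the element answering to phorbol ester. The 150 bases before the start of the 7 cluster genes with a signal are shown because the genes differed in direction while 6 of the 7 hold letters of this element, Mmp8 being the one that does not. They run 5′ to 3′ along the gene's strand, from RefSeq on GRCm38.p6 (a later build than the mm9 of the probe positions), with each match to TGANTCA in capitals.

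Mmp13 (chr9:7272364-7272513, plus strand): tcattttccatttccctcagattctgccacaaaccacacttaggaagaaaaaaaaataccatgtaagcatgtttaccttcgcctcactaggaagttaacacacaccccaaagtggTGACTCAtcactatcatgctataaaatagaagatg
Mmp12 (chr9:7347224-7347373, plus strand): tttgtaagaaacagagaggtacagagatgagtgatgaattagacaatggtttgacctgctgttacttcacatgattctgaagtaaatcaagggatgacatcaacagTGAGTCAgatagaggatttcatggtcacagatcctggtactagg
Mmp1b (chr9:7388027-7388176, minus strand): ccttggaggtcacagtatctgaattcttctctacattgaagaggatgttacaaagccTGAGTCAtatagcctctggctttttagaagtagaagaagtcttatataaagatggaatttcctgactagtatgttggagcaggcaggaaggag
Mmp3 (chr9:7445672-7445821, plus strand): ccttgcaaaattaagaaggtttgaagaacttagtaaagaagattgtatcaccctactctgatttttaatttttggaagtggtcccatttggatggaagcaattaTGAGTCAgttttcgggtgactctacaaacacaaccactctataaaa
Mmp1a (chr9:7463991-7464140, plus strand): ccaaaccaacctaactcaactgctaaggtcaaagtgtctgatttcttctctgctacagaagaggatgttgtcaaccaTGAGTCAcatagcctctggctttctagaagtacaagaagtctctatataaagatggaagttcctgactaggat
Mmp10 (chr9:7502192-7502341, plus strand): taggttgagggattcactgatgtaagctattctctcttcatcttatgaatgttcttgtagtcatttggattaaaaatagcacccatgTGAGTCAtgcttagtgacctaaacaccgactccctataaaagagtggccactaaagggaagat
Mmp8 (chr9:7558279-7558428, plus strand): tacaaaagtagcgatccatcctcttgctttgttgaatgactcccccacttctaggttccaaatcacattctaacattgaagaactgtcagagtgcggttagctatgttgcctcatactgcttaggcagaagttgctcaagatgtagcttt

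Mmp12 has another start, whose 250 bases before it hold no such match. The motif TGANTCA, which is its own reverse complement and so covers both strands, was searched for in the 250 bases before each start. It was present for 8 of the 10 genes in the cluster, the exceptions being Mmp8 and Mmp27, and for 0 of the 26 other members with a promoter sequence. Only 36 of the 51 members had a sequence. Those without one, among them Mmp2, Mmp9, Mmp17, Adamts7 and Adamts8, were not searched. Counted by promoter, 8 of the 39 member promoters held TGANTCA, beside 6.75% of all 32851 promoters. Counted from the start, the match began at −35 in Mmp13, −44 in Mmp12, −46 in Mmp3, −63 in Mmp10, −73 in Mmp1a and −93 in Mmp1b. The Ets-type motif AGGAAG, searched for on both strands as AGGAAG or CTTCCT, was present in 14 of the 39 member promoters, beside 29.5% of all promoters. These belong to 13 of the 36 member genes with a sequence, Mmp13 (at −109 and −62) and Mmp3 (at −183) among them. A match is a description of these letters and shows no binding. Members higher and not higher on the knockout-labelled array both had the AP-1 letters, Mmp13 and Mmp3 on one side and Mmp10, Mmp12 and Mmp1b on the other.

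Collagenases cut the triple helix of fibrillar collagen. Among them Mmp13 read higher on the knockout-labelled array, while the rodent interstitial collagenases Mmp1a and Mmp1b read lower, from weaker signals. Mmp13, or collagenase-3, had a signal of 910.1 in the wild-type-labelled tumour and 3373 in the knockout-labelled one, which is a difference of 1.98 ± 0.20 (3.93-fold higher), from 1 probe at chromosome 9, 7282762 to 7282821 (mm9). Mmp1a read 43.3 on the wild-type-labelled array and was not well above background on the other, where its probe (7476558 to 7476617) read 4.84. That makes it at least 2.35-fold lower there, where the bound sets the bright signal against the lowest signal well above background on the dim array. Among the 1090 genes with this pattern, 24.4% had a bound of 2-fold or more. Mmp1b, the near relative of Mmp1a, was lower by less than 2-fold with both probes (204 and 170.0 signal units for one, 42.3 and 23.1 for the other), a difference of −0.48 ± 0.43 (SD, n = 2 probes). The brighter of these probes differed by −0.18 ± 0.21, which is within the scanner software's error. Mmp8, the collagenase of neutrophil granules, differed by −0.33 ± 0.24, with signals of 77.1 and 57.7. Thus Mmp13 alone of the 4 collagenase genes was higher on the knockout-labelled array.

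Stromelysin-1 and stromelysin-2 cleave proteoglycans, laminin and other MMP precursors. Mmp3 (stromelysin-1) read 929.6 and 1980.0, a difference of 1.18 ± 0.20 (2.26-fold higher) that was under 2-fold, at 0.71, on the spike-in scale. Mmp10 (stromelysin-2), a gene of migrating keratinocytes, read 1104 and 1278, a difference of 0.30 ± 0.20 that turned to −0.17 on the spike-in scale. Mmp11 (stromelysin-3), typical of tumour stroma, read 1058 and 873, a difference of −0.19 ± 0.20. No probe of Mmp7, the epithelial matrilysin, was well above background on either array, and the same held for Mmp20, the protease of tooth enamel, and Mmp27. Mmp12, the elastase of macrophages, had 2 probes measured on both arrays that disagreed in size: one read 2.14-fold higher in the knockout-labelled tumour (134 and 271 signal units) and the other differed by 0.03 (56.6 and 54.3). Their mean was 0.56 ± 0.76 (SD, n = 2 probes). Another Mmp12 probe exceeded background only in the knockout-labelled sample (20.5 and 32.9 signal units).

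**Figure D3:**
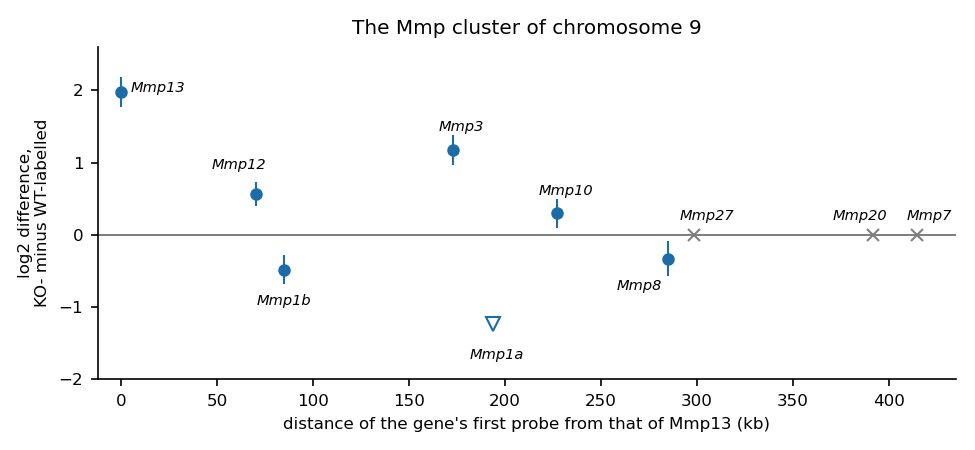
Difference between the arrays (log2, y axis) for the 10 Mmp genes of chromosome 9 against the distance of each gene's first probe from that of Mmp13 (kb, x axis). Dots with error bars are measured on both arrays, the open triangle is the bound of Mmp1a, above which its difference does not lie, and crosses at 0 are genes above background on neither array. Mmp13 and Mmp3 are high, while Mmp1b and Mmp1a, on either side of Mmp3, are below 0.

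The gelatinases, which digest denatured collagen and the collagen of basement membranes, differed little. Mmp9 read 916 and 1056 with one probe and 650.3 and 761 with the other, a difference of 0.30 ± 0.02 (SD, n = 2 probes), and Mmp2 read 671 and 488, a difference of −0.37 ± 0.20. The sign of Mmp9 turned on the spike-in scale, to −0.17. Membrane-type MMPs sit on the cell surface. Of the 6 on the array, Mmp14, Mmp15 and Mmp17 were measured and Mmp16, Mmp24 and Mmp25 were above background on neither array. Mmp17, which is held in the membrane by a lipid anchor, read 94.2 and 271, a difference of 1.61 ± 0.21 (3.05-fold higher), from 1 of its 2 probes. The other Mmp17 probe read 4.16 and 4.12 and was above background on neither array. Mmp14, the activator of the Mmp2 precursor, read 386 and 544 (0.58 ± 0.21) and Mmp15 read 107.5 and 144 (0.51 ± 0.22), and all 3 measured members of this class lay above 0 under every setting that measured them. Mmp17 was under 2-fold, at 0.84, when its dim probe was included. Among the other MMPs, Mmp19, Mmp23 and the keratinocyte gene Mmp28 (epilysin) lay between −0.14 and −0.01, with Mmp28 turning to 0.10 under normexp correction, and Mmp21 was above background on neither array.

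The ADAMTS proteases of proteoglycans held members with large differences in both directions, Adamts9 and Adamts1. Adamts9, a versican-cleaving protease, read 300.2 and 1199.6, 118 and 463, and 113 and 454 signal units with the 3 probes measured on both arrays, a difference of 2.08 ± 0.01 (SD, n = 3 probes, 4.22-fold higher). These probes lay on chromosome 6 between 92722729 and 92876407 (mm9), and their differences ran from 2.06 to 2.09. The other Adamts9 probe exceeded background only in the knockout-labelled sample, at 100.1 against 17.1. Adamts1, which also cleaves versican and aggrecan, read 3182 and 718, a difference of −2.06 ± 0.20 (4.18-fold lower), from 1 probe at chromosome 16, 85795044 to 85795103 (mm9). Adamts1 was the single measured member at least 2-fold lower on the 75th percentile scale, and it was at least 2-fold lower under all 11 settings compared. Its neighbour Adamts5, whose probes began 64.1 kb away, read 40.5 and 44.7 with the 1 probe of 3 that was above background, a difference of 0.23 ± 0.27 that turned to −0.24 on the spike-in scale and −0.36 with its dim probes included.

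Adamts8, an aggrecan-cleaving protease first known for blocking vessel growth, read 31.5 and 65.9, a difference of 1.15 ± 0.28 (2.22-fold higher). That signal was weak, and under normexp background correction the difference was 0.53. Adamts15, 63.3 kb from it on chromosome 9, read 41.6 and 60.4 (0.62 ± 0.27). Adamts4, the other classic aggrecanase, had a mean difference of −0.09 that hides probes of opposite sign, and Adamts20 was above background on neither array. The 3 Adamts4 probes lay on chromosome 1 between 173189952 and 173190768 (mm9) and, in order along the plus strand, differed by 0.85 (181 and 309 signal units), −0.30 (98.0 and 75.2) and −0.83 (1295 and 687), an SD of 0.86. Adamts4 is therefore given no direction.

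**Figure D4:**
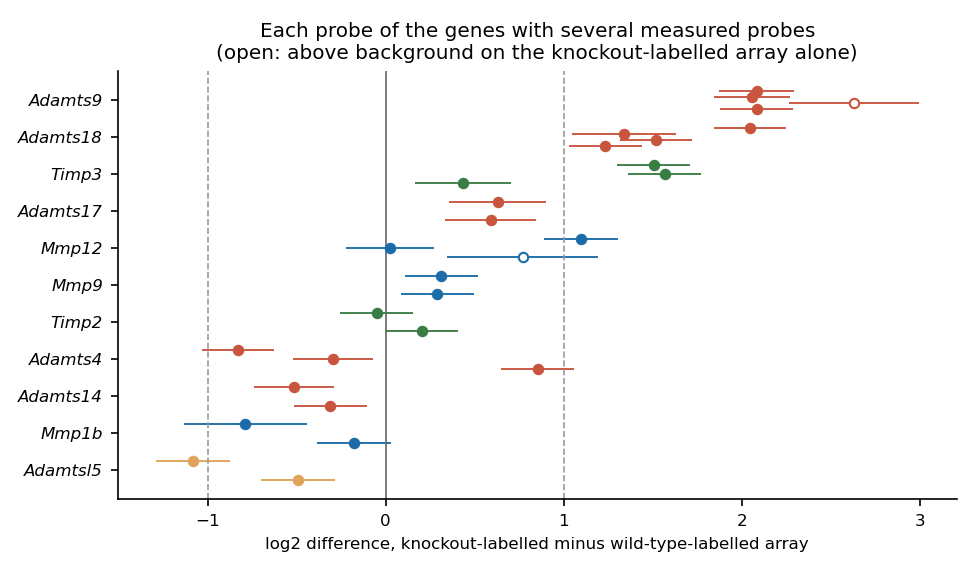
Difference between the arrays (log2, x axis) for each probe of the 11 members with 2 or more probes measured on both; bars are the scanner software's error and open circles are probes above background only in the knockout-labelled sample. Adamts9 and Adamts17 probes lie close together, whereas Adamts4, Timp3 and Mmp12 probes are far apart.

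Among the remaining ADAMTS proteases all 5 measured genes lay above 0, although Adamts12 turned to −0.15 on the spike-in scale. Adamts7, which cleaves the cartilage matrix protein COMP and acts in vessel walls, read 109 and 426, a difference of 2.05 ± 0.21 (4.14-fold higher), from 1 probe at chromosome 9, 90094715 to 90094774 (mm9), outside the Mmp cluster. Its closest relative Adamts12 read 130.1 and 153, a difference of 0.32 ± 0.21. Adamts18 had 4 measured probes, which read 661 and 1467, 1077 and 2907, 27.5 and 65.7, and 584 and 2273. Each of the 4 was over 2-fold higher in the knockout-labelled tumour, and their mean was 1.54 ± 0.36 (SD, n = 4 probes, 2.90-fold). Adamts10 and Adamts17, both tied to fibrillin microfibrils, differed by 0.81 ± 0.23 and 0.61 ± 0.03 (SD, n = 2 probes). Of the other Adamts10 probes, 2 exceeded background only in the knockout-labelled sample (24.6 against 3.86 and 34.6 against 13.6). Adamts16 had that pattern with 2 of its 3 probes, at 31.3 against 14.1 and 21.9 against 3.55, which gives a bound of at least 1.57-fold higher. Timp4 had the same pattern with 1 of 3 probes (21.5 against 9.19, at least 1.29-fold), and among the 1012 genes with this pattern 22.6% had a bound of 2-fold or more. Adamts6, Adamts13, which cleaves von Willebrand factor, and Adamts19 were above background on neither array.

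The procollagen N-propeptidases trim new collagen before it forms fibres. Adamts2 read 2187 and 2467 (0.26 ± 0.20, turning to −0.21 on the spike-in scale and −0.54 with its dim probes included), Adamts14 was lower with both probes (−0.41 ± 0.14, SD, n = 2 probes) and Adamts3 was above background on neither array. Of the ADAMTS-like genes, Adamtsl3 (0.50 ± 0.22) and Adamtsl4 (0.31 ± 0.24) lay above 0 and Adamtsl5 below it, at −0.79 ± 0.42 (SD, n = 2 probes), with Adamtsl4 turning to −0.16 on the spike-in scale. The Adamtsl5 probes read 273 and 183, and 272 and 121. Adamtsl1 and Adamtsl2 were above background on neither array.

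Both TIMP genes that were at least 2-fold apart were higher on the knockout-labelled array. Timp1, a secreted inhibitor that forms a complex with the Mmp9 precursor, read 1632 and 3738, a difference of 1.28 ± 0.20 (2.43-fold higher), from 1 probe on the X chromosome. Timp3, which stays bound to the matrix and also inhibits ADAMTS proteases, read 1252 and 3499 and 1183 and 3166 with the 2 probes at the end of the gene's range on chromosome 10, differences of 1.57 ± 0.20 and 1.51 ± 0.20. The third probe, which ended at 85769466 while the nearer of the others began at 85811696 (mm9), was weak (39.0 and 49.8) and differed by 0.44 ± 0.27, so that the mean over 3 probes was 1.17 ± 0.64 (SD, 2.25-fold). Timp2, which takes part in activating the Mmp2 precursor with Mmp14, read 7650 and 8292 with one probe and 918 and 835 with the other, a difference of 0.08 ± 0.18 (SD, n = 2 probes) that turned to −0.02 under median centring and −0.40 on the spike-in scale. On the spike-in scale Timp1 and Timp3 were under 2-fold, at 0.81 and 0.70.

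Genes that act with these families were read from 5 lists. Their counts stand beside shares over all measured genes of 4.82% at least 2-fold higher and 5.04% lower. Of 7 measured genes of plasminogen activation, the cascade that turns MMP precursors into active enzymes, 0 were at least 2-fold higher and 2 lower: Plat (tissue plasminogen activator, −1.08) and Serpinb2 (an inhibitor of the activators, −1.18). Plau, the urokinase gene, differed by −0.12 and its receptor gene Plaur by 0.95. Among 14 measured activators, inhibitors and clearance factors of MMPs 0 were at least 2-fold higher, and Spock1 (a matrix proteoglycan, −1.10) was among those at least 2-fold lower, while Reck, a membrane inhibitor of MMPs, differed by 0.59 and Furin, which cleaves MMP precursors, by −0.12. Of 10 measured ADAM and astacin proteases, the relatives of these families, 0 were at least 2-fold apart, and their differences ran from −0.54 (Adam9) to 0.64 (Adam19). In the substrate list 3 of 19 measured genes were at least 2-fold higher and 0 lower, namely the microfibril gene Fbn2 (3.74-fold), the small proteoglycan gene Bgn (1.42 ± 1.01, SD, n = 2 probes) and the anchoring fibril collagen gene Col7a1 (1.27). On the spike-in scale, where every difference reads 0.47 lower, Bgn and Col7a1 fall under 2-fold and Fbn2 does not. The fibrillar collagen genes Col1a1 and Col1a2, cut by collagenases, differed by 0.10 and 0.20, versican (Vcan) differed by 0.74, and aggrecan (Acan) and Comp were above background on neither array.

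Of 19 measured genes for signals known to switch on MMP genes, 8 were lower by 2-fold or more in the knockout-labelled tumour, 1 was higher and 10 were neither, with a median of −0.50. The AP-1 genes Fosb (−3.28), Fos (−2.36) and Fosl1 (−2.06), the cytokine gene Il6 (−2.21) and the EGF receptor ligand gene Areg (−1.79) were among the lower ones. The other lower ones were the AP-1 genes Jund (−1.17) and Junb (−1.06) and Hbegf (−1.11), another EGF receptor ligand gene. The growth factor genes Fgf2 and Egf exceeded background only in the knockout-labelled sample, with bounds of at least 2.36-fold and 1.72-fold higher. Among the 1012 genes with this pattern, 22.6% had a bound of 2-fold or more. Osm, the oncostatin M gene, was the higher one of those measured on both arrays, at 1.39, and Il1b, another inducer of MMP genes, differed by 0.99. On the spike-in scale Osm and the bound of Fgf2 fall under 2-fold.

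Marker genes of cell types that a skin tumour can hold were read beside the members. In a tumour, fewer cells of a type and less RNA per cell cannot be told apart. Macrophage and monocyte markers had 4 of 9 higher by 2-fold or more and 1 lower, Mrc1 (−1.07), with a median of 0.82. Of the 4 higher ones, Cx3cr1 (2.78) stays at least 2-fold higher on the spike-in scale, while Cd14, Lyz2 and Mertk do not. Cd163 exceeded background only in the wild-type-labelled sample, with a bound of at least 1.66-fold lower. The summed signal of the 9 markers, before scaling, was 6930.4 for the wild-type-labelled tumour and 11552 for the other. Over all measured genes that sum was 6.86e+07 and 5.76e+07, and a few bright genes can carry a sum. Smooth muscle and pericyte markers had 4 of 6 higher and 0 lower, with summed signals of 5698 and 15671. Of these 4, Tagln (1.81) stays at least 2-fold higher on the spike-in scale, while Acta2 (1.38), Cnn1 (1.05) and Cspg4 (1.07) do not. Dpt (1.32, fibroblast) and Spp1 (1.42, cartilage and bone) also fall under 2-fold there. For fibroblast markers, 1 of 10 was higher and 0 lower, and the sums were 28742 and 29157. Neutrophil markers had 1 of 9 higher and 0 lower (298873 and 213351, with a median difference of 0.11), and Ngp was above background on neither array. Of 7 endothelial markers 0 were 2-fold apart (2278 and 2917), and of 6 mast cell markers 4 were lower and 0 higher (4223 and 1661). Among keratinocyte markers 1 of 7 basal ones was higher and 0 lower (347539 and 447893), and 4 of 6 suprabasal ones were lower and 0 higher (352367 and 139577). Skeletal muscle markers had 1 of 4 higher and 0 lower (205 and 522), with Ckm above background on neither array. Markers of cartilage and bone had 1 of 5 higher and 0 lower (2494 and 3581), with Sox9, Col2a1, Bglap, Sp7 and Spp1 measured on both arrays and Acan, Comp and Ibsp above background on neither. The part of these cell types in the differences of the proteases and inhibitors was not tested.

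**Figure D5:**
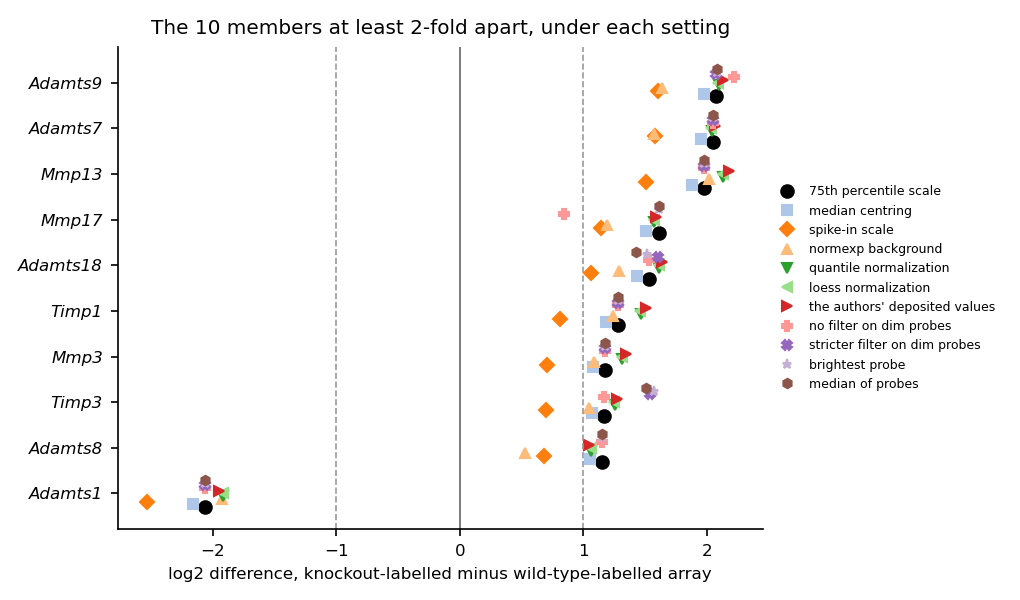
Difference between the arrays (log2, x axis) for the 10 members at least 2-fold apart, under the 75th percentile scale (black) and the 10 other settings. Every gene stays on its side of 0, Adamts1 on the left and the others on the right, while Adamts8, Timp3, Mmp3, Timp1 and Mmp17 cross the dashed 2-fold line under 1 or more settings.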

How the data were processed

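Total RNA of 1 tumour sample per genotype was labelled with Cy3 from 0.2 µg and hybridised, per the labels' protocols. Spot intensity values were made by the authors using Agilent Feature Extraction 10.7.1.1, per the submitters' processing notes, with background subtraction and spatial detrending, per the file headers; probe positions are on mm9, and both arrays lay on 1 slide in 1 scan, per the file headers. Over 56594 probes, Pearson's r between the authors' deposited log2 table and log2 of the processed intensity was 0.9999 and 0.9997. Its columns have a common median of 4.96 and nearly equal sorted values, as after quantile normalization, and how it was made is not stated in those notes.

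From the processed intensity, log2 minus the array's 75th percentile over non-control probes was taken, with the spots of a probe averaged and spots marked as non-uniform or outliers left out (102 and 105). A gene is the mean of its probes well above background on both arrays. Probes were named through RefSeq accessions (32994 probes, 1535 with an updated symbol; 23611 kept the array file's name). No pair of probes of different members matched at more than 31 of 60 bases when aligned without gaps, on the same strand and over limited shifts. Of the member probes 50 were measured on both arrays, 7 on the knockout-labelled and 1 on the wild-type-labelled array alone. Alternatives used limma 3.58.1 in R 4.3.3 (normexp with an offset of 50, quantile, loess), with pandas 2.3.3 in Python 3.11.15 for the rest. The calculation was tested on simulated data in which only bright genes were changed, so changes in dim genes were not covered. Every member was eligible to be named, with those at least 2-fold apart in full, and of each companion list those 2-fold apart and further examples chosen after their values were seen. One gene of the companion lists is not reported here. The members and lists were chosen with earlier results of these data known.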

Additional observations from a re-analysis of the deposited data

How the results depend on the processing

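Results were recomputed under 10 other settings and 2 other thresholds. All 10 members at least 2-fold apart kept their sign under every setting that measured them, and Adamts1, Adamts7, Adamts9, Adamts18 and Mmp13 were at least 2-fold apart under all 11. The 10 were picked for their size and each setting re-reads the same 2 arrays, so a kept sign is no replication. On the spike-in scale, from 8 control probes, 5 members were higher and 2 lower (Adamtsl5 joined Adamts1) with a median of −0.15, beside 1.59% of all genes higher and 16.1% lower. Under normexp correction 8 were higher and 1 lower, without Adamts8, beside 1.85% and 2.91% of all genes. With no filter on dim probes, which brings in all 51 members, the median was 0.082 beside 0.049 over all genes. There 10 were higher (Adamts10 and Adamts16 joined, Mmp17 left) and 2 lower (Mmp1a joined), beside 6.01% and 5.72% of all genes. With the authors' deposited values the median was 0.44. At 1.5-fold 12 members were higher and 2 lower, beside 12.9% and 13.8% of all genes, and at 3-fold 4 were higher (Adamts7, Adamts9, Mmp13 and Mmp17) and 1 lower, beside 1.21% and 1.57%. The median of the Mmp genes (0.30) turned to −0.17 and that of the Adamtsl genes (0.31) to −0.16 on the spike-in scale, and the Adamtsl median to −0.15 under the stricter filter, a signal of 100 on both arrays. Medians of the Adamts and Timp genes stayed above 0. Under the stricter filter 8 of 26 measured members were higher and 1 lower, beside 3.17% and 4.54% of all genes. There Mmp12 joined the higher members, and Adamts8 and Mmp17 were not measured. With the brightest probe of each gene 10 were higher (Mmp12 joined) and 1 lower, beside 5.03% and 5.29% of all genes. No paired analysis was possible because each genotype has 1 array. Of the 9 higher members 6 rest on 1 measured probe, and members with signals near background, such as Adamts8, are imprecise.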

Other observations

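Members with several probes can be set beside genes in general: 2 of 11 members with 2 or more measured probes (Adamts4 and Timp2) had probes on different sides of 0, 18.2%, beside 2446 of 6731 genes, 36.3%. In Adamts4 neighbouring probes stood at 0.85 and −0.30, so the gene reads higher or lower depending on the probe used. In Timp3 the 2 probes that agree were bright on both arrays and the one that does not was dim on both.

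Several members that are close relatives or neighbours on a chromosome had unlike values. Adamts1 and Adamts5 on chromosome 16 stood at −2.06 and 0.23, Adamts9 and Adamts20, which share a domain of their own, at 2.08 and above background on neither array, and Adamts7 and Adamts12 at 2.05 and 0.32. Mmp3 and Mmp10 stood at 1.18 and 0.30. Other pairs were alike: the neighbours Adamts8 and Adamts15 both lay above 0, at 1.15 and 0.62. Adamts13 and its neighbour Adamtsl2 were above background on neither array, and the relatives Mmp1a and Mmp1b both read lower. The pairs named are examples, and pairs that agree were not counted. None of these differences between genes was tested.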
